A study of Mus musculus with 6 samples.

Results

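The clonotypes described here were T cell receptor delta chain joins in which the diversity segment Trdd2 was recognised and bases had been inserted at its junctions, but whose CDR3 protein held none of the motifs GGI, EGY or RRD, the marks of the central part of Trdd2 in its 3 reading frames. Members were taken by rule from the table of the first read of each library: Trdv1 or Trdv5 with Trdd2 and Trdj1, at least 1 inserted base by the segment borders in the table, and no frame motif anywhere in the CDR3 amino acid sequence. A clonotype was a CDR3 nucleotide sequence with its V and J segment. Of 1936 distinct Trdv1 and Trdv5 clonotypes, 466 met the rule, and 1122 other N-added Trdd2 clonotypes held a motif (called motif holders below). Because a clonotype could occur in several samples, the members made 528 entries over the 6 samples and the motif holders 1258.

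The samples were γδ T cells of peripheral lymph nodes (pLN) from B6.TCR-Vγ4-/-/Vγ6-/- mice, which lack the Vγ4 and Vγ6 gamma chain segments in both groups. The cells were stimulated with PMA and ionomycin and sorted by an IL-17 secretion assay into IL-17neg and IL-17pos γδ T cells. Each group held 3 samples, numbered 13-01, 20-01 and 27-01, and the labels do not say whether they came from separate mice, so the p-values measure only the spread between these samples, which may be technical. The sort used antibodies to the γδ receptor but none to a single Vγ chain, and the RACE PCR libraries were made for Trdv1 and Trdv5, so other delta chains were not sampled. The tables held between 95803 and 142169 reads per sample, of which 95800 to 142163 were assigned to Trdv1 or Trdv5.

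A delta chain gene is assembled by joining a V, one or more D and a J segment. At each junction the ends can be trimmed by nucleases, palindromic (P) bases can be left by the opening of hairpin ends, and terminal deoxynucleotidyl transferase can add N bases without a template. CDR3, the loop that spans the junctions and contacts antigen, therefore carries a D segment of variable length and frame. Trdd2 can be read in each of its frames. Trdv5 lies downstream of Trdj1 in the opposite orientation and joins by inversion, whereas Trdv1 joins by deletion.

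The germline parts that meet in these CDR3s are shown first, because the position of each member's D remnant is counted along them. The sequences were read from the RefSeq annotation of GRCm38 (mm10) on chromosome 14. Trdv1 spans chr14:53881612-53882217 and Trdd1 spans chr14:54113468-54113476, followed by Trdd2 at chr14:54122226-54122241 and Trdj1 at chr14:54123138-54123188, all on the plus strand. Trdv5 lies at chr14:54148662-54149201 on the minus strand. All were written 5′ to 3′ in the coding sense, each V from the codon of the conserved cysteine to its last base and Trdj1 from its first base to the codon of the conserved phenylalanine, so that they are coding exon sequence.
Trdv1: tgtggagggaaag
Trdv5: tgtgcctcggggtat
Trdd1: atggcatat
Trdj1: ctaccgacaaactcgtcttt

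Trdd2 is 16 bases long, and each motif is encoded by a window of 9 bases of it. In the lines below, capitals mark the window for GGI (bases 4 to 12), EGY (bases 5 to 13) and RRD (bases 3 to 11).
Trdd2, GGI window: atcGGAGGGATAcgag
Trdd2, EGY window: atcgGAGGGATACgag
Trdd2, RRD window: atCGGAGGGATacgag

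The member with the most reads of each V segment in each sample is given next, because these clonotypes carried the largest parts of the reads. Capitals mark the longest run identical to Trdd2 found in the recognised D region. The run was extended past the borders where the match went on, but not into the exact V or Trdj1 part. Lower case letters on either side are V, J, P or inserted bases.
IL-17neg 13-01, Trdv1: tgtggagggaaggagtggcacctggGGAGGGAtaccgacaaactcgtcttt
IL-17neg 13-01, Trdv5: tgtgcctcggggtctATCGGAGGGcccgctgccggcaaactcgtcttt
IL-17neg 20-01, Trdv1: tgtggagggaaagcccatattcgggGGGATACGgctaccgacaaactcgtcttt
IL-17neg 20-01, Trdv5: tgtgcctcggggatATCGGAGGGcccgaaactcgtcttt
IL-17neg 27-01, Trdv1: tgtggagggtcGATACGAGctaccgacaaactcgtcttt
IL-17neg 27-01, Trdv5: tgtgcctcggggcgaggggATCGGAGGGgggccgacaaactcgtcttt
IL-17pos 13-01, Trdv1: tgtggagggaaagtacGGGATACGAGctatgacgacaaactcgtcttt
IL-17pos 13-01, Trdv5: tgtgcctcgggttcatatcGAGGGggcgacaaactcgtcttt
IL-17pos 20-01, Trdv1: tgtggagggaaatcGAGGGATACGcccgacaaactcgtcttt
IL-17pos 20-01, Trdv5: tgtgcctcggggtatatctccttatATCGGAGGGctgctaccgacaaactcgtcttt
IL-17pos 27-01, Trdv1: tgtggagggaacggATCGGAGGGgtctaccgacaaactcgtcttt
IL-17pos 27-01, Trdv5: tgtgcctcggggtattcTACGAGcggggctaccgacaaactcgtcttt

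The lead clonotype of IL-17neg 20-01 was the Trdv5 join whose run ATCGGAGGG is followed by ccc. It had 11151 reads there, 8.39% of the Trdv1 and Trdv5 reads of the sample (Wilson 95% interval 8.24% to 8.54%), and was the most abundant of all its clonotypes. It was found at 4 reads in IL-17neg 13-01, 3 reads in IL-17pos 20-01 and 4 reads in IL-17pos 27-01, and was not detected in the other two samples, where a count of 0 allows up to 3 reads. Reads were PCR products without molecular identifiers, so intervals and limits of this kind cover counting error only. Its CDR3 of 39 nucleotides was among the shorter ones, and its D run lay in the EGY frame, in which it had the largest summed share of reads of all members.

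The lead Trdv1 member of IL-17neg 13-01 ranked second in that sample, with 6294 reads or 5.85% (5.71% to 5.99%). It was found elsewhere only at 3 reads in IL-17neg 20-01. It held bases 4 to 10 of Trdd2 in the RRD frame, after 14 inserted bases on the V side and with none on the J side. The lead Trdv5 member of the same sample, in the GGI frame, had 3037 reads (2.82%, 2.73% to 2.92%), with 1 read each in IL-17neg 20-01 and IL-17pos 20-01. In the first, the t after the run is shared by Trdd2 and Trdj1, so that the start of its motif window was missing but not its end, and the second had lost the last bases of its window.

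In the IL-17pos samples no member held more than 3.21% of the reads. The Trdv5 lead of IL-17pos 20-01 ranked second there with 3073 reads (3.21%, 3.10% to 3.32%) and was found in no other sample. The Trdv5 lead of IL-17pos 13-01 had 1876 reads (1.90%, 1.82% to 1.99%), and also had the shortest recognised D region, 5 bases, among members with at least 10 reads. The Trdv5 lead of IL-17pos 27-01, whose remnant TACGAG is the 3′ end of Trdd2, had 1331 reads (0.936%, 0.887% to 0.988%) and 4 reads in IL-17neg 20-01. The Trdv1 leads of the IL-17pos samples had 1293 (13-01), 987 (20-01) and 936 reads (27-01), and only the last was seen elsewhere, at 1 read in IL-17neg 20-01.

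In IL-17neg 27-01 the leading members were of similar size to those of IL-17pos 27-01, at 1253 reads for Trdv5 (1.09%, 1.03% to 1.16%) and 730 reads for Trdv1 (0.637%, 0.592% to 0.685%). Neither was found in another sample. The Trdv1 lead of IL-17neg 20-01 had 3033 reads (2.28%, 2.20% to 2.36%), also in that sample alone. The number of members among the 10 clonotypes with the most reads was 4, 1 and 3 in IL-17neg 13-01, 20-01 and 27-01. In the IL-17pos samples it was 0, 2 and 1 in the same order. Members made up 21.1% to 27.9% of all Trdv1 and Trdv5 clonotypes per sample. These small counts were not tested.

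A further set of members is given because they mark the extremes of length and sharing. The first was found in 4 samples, the second had the longest recognised D region among members with at least 10 reads, the third the most insertions, and the fourth was the only member with at least 10 reads in 2 samples and was chosen after its values were seen.
Trdv5, 4 samples: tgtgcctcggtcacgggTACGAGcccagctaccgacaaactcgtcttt
Trdv5, longest D region: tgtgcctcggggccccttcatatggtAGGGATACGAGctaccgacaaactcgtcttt
Trdv5, most insertions: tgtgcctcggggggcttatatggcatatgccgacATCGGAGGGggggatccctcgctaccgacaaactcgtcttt
Trdv1, 2 samples: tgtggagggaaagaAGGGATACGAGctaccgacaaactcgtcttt

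The member found in 4 samples had 1730 reads in IL-17pos 13-01 (1.75%, 1.67% to 1.84%), 2 in IL-17neg 13-01, and 1 each in IL-17neg 20-01 and IL-17pos 20-01. The member with the longest D region had 1214 reads in IL-17neg 27-01 and none elsewhere. Its region of 22 bases by the borders exceeds the 16 bases of Trdd2, because the borders take in bases beside the exact run, which was 11 bases long. The member with most insertions had 654 reads in IL-17pos 20-01 alone, with 17 inserted bases between V and D and 11 between D and J, and its V side contains the whole of Trdd1. The Trdv1 member seen in 2 samples had 201 reads in IL-17pos 13-01 and 193 in IL-17pos 27-01, and only 1 of its 45 bases lay outside the exact Trdv1, Trdd2 and Trdj1 parts.

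The absence of the motifs is tied by the rule to what was left of Trdd2 and to its bases, so the remnants are given as a description. The D region by the borders had a median of 10 bases in the 466 members (quartiles 8 and 14, range 5 to 26) and of 15 bases in the 1122 motif holders (quartiles 13 and 18). Regions of 5 to 7 bases were found in 114 members and 4 motif holders, regions of 8 to 10 bases in 130 and 71, and regions of 11 to 13 bases in 100 and 265. Members thus made up 96.6% of the N-added Trdd2 clonotypes in the shortest class and 27.4% at 11 to 13 bases. A further 66 members had 14 to 16 bases, and 56 had more than the 16 bases of the germline segment. An exact run of at least 5 Trdd2 bases could be placed in 446 members. Its median was 9 bases (range 5 to 13), against 14 in the motif holders, of which 28.5% kept all of Trdd2.

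Losses from the 3′ end of Trdd2 were larger than those from the 5′ end. The median number of bases lost was 2 at the 5′ end and 6 at the 3′ end, and 3 and 5 among members with at least 10 reads. The first base of Trdd2 was kept in 179 of the 446 placed members (40.1%) and the last in 95 (21.3%), and both ends were trimmed in 172 (38.6%). In the motif holders the first base was kept in 61.7% and the last in 49.4%, so the 5′ end was the more often intact end in both sets. Bases 7 to 9, the GGG in the middle of the stretch shared by all of the motif windows, were kept in 87.9% to 90.4% of placed members. Base 12 was kept in 35.2%. The central bases lie in any long run, so the share that kept them is tied to the length of the runs placed.

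The same few remnants recurred. The 446 placed members used 57 different stretches of Trdd2, and 83 of them (18.6%) kept exactly bases 1 to 9, the run ATCGGAGGG. The next most frequent stretches were bases 1 to 10 in 37 members and bases 7 to 16, the run GGGATACGAG, in 32. These 3 stretches can be set beside each other with their bases in capitals.
Bases 1 to 9, 83 members: ATCGGAGGGatacgag
Bases 1 to 10, 37 members: ATCGGAGGGAtacgag
Bases 7 to 16, 32 members: atcggaGGGATACGAG

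Bases 1 to 9 were joined to Trdv5 in 50 of these members and to Trdv1 in the others. They were read in the GGI frame in 37 members, the RRD frame in 30 and the EGY frame in 16. The stretch was thus not bound to a frame or to a V segment. In 8 motif holders the exact run was the same, with the rest of the motif supplied by other bases.

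All of the reading frames were found among the members. The frame of the remnant was that of GGI in 177 (39.7%), of RRD in 135 (30.3%) and of EGY in 134 (30.0%) of the 446 placed members. In the motif holders the same frames held 43.3%, 24.6% and 32.1%. The end of the motif window was lost in 256 members (57.4%), its start in 167 (37.4%) and both in 23. Loss of the end was the more frequent in the GGI frame (110 against 57) and the EGY frame (79 against 51), and the 2 kinds were nearly equal in the RRD frame (67 against 59). Bases shared by Trdd2 with the V or Trdj1 part had been given to the latter. Given to Trdd2 instead, they lengthened the run at the 3′ end in 7 members and at the 5′ end in 7, and the losses became 256 at the end, 171 at the start and 19 at both.

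The shares of the frames differed between samples, most of all by reads in the GGI and EGY frames. The GGI frame held 43.1%, 42.9% and 35.6% of placed members in IL-17neg 13-01, 20-01 and 27-01, and 48.6%, 35.7% and 40.6% in the IL-17pos samples. The EGY frame held 22.9% to 35.7% and the RRD frame 26.5% to 37.7% over the 6 samples. By reads, the GGI frame ranged from 13.8% to 55.9%, the EGY frame from 12.8% in IL-17pos 13-01 to 66.5% in IL-17neg 20-01, where the lead clonotype lies in that frame, and the RRD frame from 19.6% to 33.8%. The RRD frame thus varied about as much by clonotypes (SD 4.1 percentage points, n = 6) as by reads (SD 5.1). These shares overlapped between the groups and were not tested.

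Insertions were found mainly on the V side of the remnant. Over the 466 members the mean was 5.19 bases between V and D and 2.43 between D and J by the borders of the tables. The V side held more inserted bases in 293 members, the J side in 144, and 29 had equal numbers. Both junctions carried insertions in 280, while 60 had none between V and D and 126 none between D and J. Only 24 members had a single inserted base and 42 had 2, so the threshold of 1 base concerned few of them. Bases counted as inserted between V and D can include bases of Trdd1, so the larger number on that side is not of N bases alone. The borders count P bases and mismatched bases as part of a segment. A mean of 16.1 bases lay outside the exact V, Trdd2 and Trdj1 parts of members, bases of Trdd1 included, against 7.62 inserted bases by the borders.

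The bases beside the remnant were described because P bases and a second D segment would be found there. In the 179 members with the first base of Trdd2, the base before it was T in 138 (77.1%) and the pair AT, the palindrome of that end, was present in 106 (59.2%). The motif holders gave 78.8% and 55.2%. AT is also the end of Trdd1 and of the last codon of Trdv5, so the origin of these bases cannot be told from the sequence. In the 95 members with the last base of Trdd2, the next base outside the exact Trdj1 part was C, its palindrome, in 58 (61.1%), and 65.5% in the motif holders.

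Inserted bases were rich in G and C. Between V and D, 2418 inserted bases were 34.4% G and 26.5% C in the members, close to the 35.4% and 26.4% of the motif holders. These bases can include sequence of Trdd1. Between D and J the sets differed, with 40.8% C and 28.2% G among 1134 bases in the members and 28.5% C and 40.0% G among 2295 bases in the motif holders. Per sample, the share of C between D and J was 35.1%, 33.7% and 42.9% in the members of IL-17neg 13-01, 20-01 and 27-01, and 35.0%, 43.8% and 42.0% in the IL-17pos samples. The motif holders gave 21.3% to 30.4%, below the members in each of the 6 samples. Among clonotypes with at least 10 reads the ranges were 32.5% to 47.4% and 16.9% to 31.9%. The rule acts on the codons beside the remnant, and the pattern was noticed in these data, so it was not tested.

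The first base after the exact Trdd2 run differed with the end of the run. Over all remnants followed by a base outside Trdj1 it was C in 41.9% of 406 members and 51.8% of 968 motif holders. After a complete 3′ end of Trdd2, the more frequent case in motif holders, it was C in 58 of 72 members and 363 of 462 motif holders. After the other remnants it was C in 33.5% of 334 members and 27.3% of 506 motif holders, so the order of the sets turned. It did not turn at each single end. After base 10 it was C in 45.1% of 51 members and 87.5% of 8 motif holders. After base 11 it was C in 21.8% of 55 members and 56.7% of 67 motif holders. After remnants that ended at base 9, G (45.7%) was more frequent than C (37.0%) in the members, while 2 of 12 such motif holders had C. Of the 127 members with such a remnant and a following base, 47 continued with C, 41 with CC and 24 with CCC, as in the lead Trdv5 clonotypes of IL-17neg 13-01 and IL-17neg 20-01. Among members with at least 10 reads these numbers were 30, 26 and 15 of 64, with C in 46.9% and G in 31.2%. A remnant ending at base 9 cannot be followed by A, since base 10 of Trdd2 is A and the run would be longer.

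Sequence of Trdd1, the D segment that lies upstream of Trdd2, was found only on the V side of the remnants. A run of at least 6 bases of Trdd1 was present between V and Trdd2 in 77 of the 446 placed members (17.3%), and 18 of them held all 9 bases. No such run was found between Trdd2 and J, in members or in motif holders, although less sequence was present there. In the motif holders the V side held such a run in 22.0%. Per sample the share in members was 11.8%, 14.3% and 15.8% in IL-17neg 13-01, 20-01 and 27-01, and 11.4%, 30.0% and 14.8% in the IL-17pos samples. It was below that of the motif holders in 5 of 6 samples, with IL-17pos 20-01 the exception.

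Both V segments were used. Of the 466 members, 247 (53.0%) used Trdv5 and 219 Trdv1, while the motif holders used Trdv5 in 45.5%. Per sample, Trdv5 made up 67.9%, 60.0% and 55.1% of member clonotypes in IL-17neg 13-01, 20-01 and 27-01, and 20.0%, 58.4% and 51.6% in the IL-17pos samples. IL-17pos 13-01 stood apart with 7 Trdv5 members of 35. By reads, however, Trdv5 held more than Trdv1 in every sample, from 52.1% of the member reads in IL-17pos 13-01 to 69.6% in IL-17neg 20-01. Trdv5 and Trdv1 members were alike in the length of the D region, with medians of 10 and 11 bases. Insertions between V and D averaged 5.74 bases in Trdv5 members and 4.56 in Trdv1 members. Trdv5 was higher in 5 of 6 samples, by 0.39 ± 2.38 bases (SD, n = 6), and the difference was -3.86 bases in IL-17pos 13-01 with its few Trdv5 members, so the difference was within the spread between samples.

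To compare IL-17neg and IL-17pos cells, the share of members among all Trdv1 and Trdv5 reads was taken per sample. It was 30.8% (Wilson 95% interval 30.5% to 31.0%), 20.0% (19.8% to 20.2%) and 22.1% (21.9% to 22.4%) in IL-17neg 13-01, 20-01 and 27-01. In the IL-17pos samples it was 13.5% (13.3% to 13.7%), 23.6% (23.3% to 23.9%) and 21.6% (21.4% to 21.8%). The highest sample was IL-17neg and the lowest IL-17pos, but the groups overlapped. The means were 24.3% ± 5.7 and 19.6% ± 5.4 (SD, n = 3 each), and the exact two-sided permutation test gave p = 0.5 (adjusted p = 0.667 over the 8 comparisons between groups). With 3 samples a group this test cannot go below 0.1. The difference of -4.75 percentage points was -1.53 without IL-17neg 13-01 and -1.71 without IL-17pos 13-01. The counting intervals were narrower than the spread between samples, but the number of cells or RNA molecules behind the reads is not known, and the leading member alone held 4.34% to 41.9% of a sample's member reads.

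As a share of Trdv1 and Trdv5 clonotypes, members made up 26.9%, 22.6% and 22.3% in the IL-17neg samples and 21.1%, 27.9% and 24.2% in the IL-17pos samples. These were 53 of 197, 50 of 221 and 156 of 699 clonotypes, and 35 of 166, 77 of 276 and 157 of 648. The number of clonotypes per sample thus varied far more than the share of members among them. The Wilson 95% intervals were 15.6% to 27.9% for the lowest share, in IL-17pos 13-01, and 22.9% to 33.5% for the highest, in IL-17pos 20-01. The means were 23.9% ± 2.6 and 24.4% ± 3.4 (SD, n = 3 each; exact two-sided permutation p = 0.9).

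In the make-up of all members, with any number of reads, the values of the groups overlapped in every measure compared and no exact test passed. The mean D region was 9.91, 10.8 and 10.9 bases in the IL-17neg and 11.5, 10.96 and 10.5 bases in the IL-17pos samples (exact two-sided permutation p = 0.4). The difference of 0.45 bases turned to -0.37 with at least 10 reads and to -0.20 weighted by reads. Mean insertions between V and D were 4.40, 5.30 and 5.37 against 5.80, 5.73 and 4.36 bases (p = 0.6 by the same exact test, difference 0.27, or 1.17 with at least 10 reads and 1.43 weighted by reads). Those between D and J were 1.77, 2.02 and 2.57 against 3.34, 2.40 and 2.36 bases (exact p = 0.3). Their difference of 0.58 bases was 0.14 with at least 10 reads and turned to -0.20 weighted by reads. The mean CDR3 length was 47.9, 50.2 and 51.0 nucleotides in IL-17neg and 52.3, 52.7 and 49.5 in IL-17pos samples, with group means of 49.7 ± 1.6 and 51.5 ± 1.7 (SD, n = 3 each; exact p = 0.3). The difference of 1.79 nucleotides was 0.887 without IL-17neg 13-01 and 2.78 without IL-17pos 27-01. The Trdv5 share of member clonotypes had the smallest p of the 8 comparisons, with means of 61.0% ± 6.5 and 43.3% ± 20.5 (exact p = 0.2), and without IL-17pos 13-01 the difference was -6.0 instead of -17.7 percentage points. With all members, no adjusted p was below 0.667. With at least 2 reads per clonotype, the groups did not overlap in insertions between D and J or in Trdv5 share. These insertions averaged 1.3, 2.22 and 2.30 bases in IL-17neg and 2.83, 2.55 and 2.48 in IL-17pos samples. Trdv5 shares were 73.3%, 66.7% and 59.3% against 21.7%, 58.5% and 54.2%. Each exact two-sided permutation test gave p = 0.1, the smallest possible, with an adjusted p of 0.4.

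Members were next set beside the motif holders of the same samples. Both sets met the same conditions on V, J and insertions, but the absence of a motif bears on the length of the remnant and on the bases beside it, so insertions and CDR3 length are given as a description, with no test. The holders had 6.12, 6.0 and 5.90 inserted bases between V and D in the IL-17neg samples and 6.06, 6.40 and 5.53 in the IL-17pos samples. Members, whose values are given above, were lower in 6 of 6 samples. The differences ran from -1.72 to -0.26 bases, with a mean of -0.84 ± 0.52 (SD, n = 6). Bases of Trdd1 can be counted among these insertions. Runs of at least 6 of them lay there in 17.3% of placed members and 22.0% of motif holders. Their part in the difference was not tested. Between D and J, members had more inserted bases in 4 of 6 samples, with a mean difference of 0.27 ± 0.67 (SD, n = 6) that was 0.085 without IL-17pos 13-01. By exact matches the differences were -0.46 bases between V and D and 1.32 between D and J.

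Members were shorter overall. The mean CDR3 of the motif holders was 55.8, 54.7 and 55.2 nucleotides in the IL-17neg and 56.0, 55.7 and 55.0 in the IL-17pos samples, above the members in 6 of 6 samples and with no overlap between the sets. The mean difference was -4.80 ± 1.75 nucleotides (SD, n = 6). Short D remnants, which the rule selects, enter this length, and the mean exact Trdd2 run was 8.19 to 8.91 bases in members and 13.5 to 13.9 bases in the holders of the same samples. The most frequent lengths were 48 nucleotides (95 members) and 45 nucleotides (82 members), against 51 nucleotides (213 clonotypes) in the motif holders.

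V use, sharing and read support were compared by an exact two-sided sign-flip test over the 6 samples, which cannot go below 0.03125, with adjustment over these 3 measures. No difference passed an adjusted p of 0.05, which a single measure at that limit could not pass either. The Trdv5 share was higher in members in 5 of 6 samples, by 4.65 ± 12.7 percentage points (exact p = 0.375, adjusted p = 0.5625), and was -17.9 points in IL-17pos 13-01. The mean difference was 9.15 points without IL-17pos 13-01 (exact p = 0.0625, the smallest possible with 5 samples). It was 2.0 points without IL-17pos 20-01 and 11.4 points with at least 10 reads. The share of clonotypes found in another sample was higher in members in 3 of 6 samples, with a mean difference of 1.46 ± 8.30 points (exact p = 0.75, adjusted p = 0.75). The share with at least 10 reads was lower in members in 5 of 6 samples, with a mean difference of -8.10 ± 5.97 points (exact p = 0.0625, adjusted p = 0.1875). Without clonotypes within 3 bases of one with at least 50 times the reads, the direction turned, at 0.681 points (exact p = 0.906).

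Most members were private. Of 466 members, 415 (89.1%) were found in 1 sample, 42 in 2, 7 in 3 and 2 in 4. The 51 shared members made up 10.9%, and shared motif holders 10.2% of their set. In 50 of the 51, the sample with the second highest count held at most 4 reads, while the highest count was at least 84.7 times larger. The median ratio of the highest to the second count over the 51 was 591. The exception was the Trdv1 member with 201 and 193 reads shown above, which was in both cases found in IL-17pos cells.

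The low-count copies followed certain pairs of samples. IL-17neg 20-01 and IL-17pos 27-01 shared 24 members, and in 22 of these the larger count was in IL-17pos 27-01, while IL-17neg 20-01 held at most 4 reads. The next pair, IL-17neg 13-01 and IL-17neg 20-01, shared 11. Samples with the same number shared 6 (13-01), 6 (20-01) and 3 (27-01). The share of a sample's members that was found elsewhere was 37.7%, 74.0% and 5.13% in IL-17neg 13-01, 20-01 and 27-01, and 28.6%, 11.7% and 18.5% in the IL-17pos samples. The exact two-sided permutation test between the groups gave p = 0.5, and the difference of -19.4 percentage points was -1.86 without IL-17neg 20-01. The part that carry-over between libraries had in these copies was not tested.

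Nearly all of the member reads lay in the clonotypes with many reads. The 254 entries with at least 10 reads held 99.8% of member reads, whereas 248 of the 528 entries had only 1 or 2 reads and together held 0.184%. Of those 248, 172 (69.4%) were at 2 or 3 base differences from a clonotype of the same sample, V segment and length with at least 50 times as many reads. None was at a single difference. In 65 of the 172 the larger neighbour was a motif holder, and in 97 it was another member. The reverse was rare: of 285 motif holder entries near a far larger clonotype, 1 was near a member and 269 were near a motif holder. The rule bears on this contrast, since changed bases can remove a motif. Motif holders also held 46.4% to 61.8% of the Trdv1 and Trdv5 reads per sample. Among entries with at least 10 reads, 2 of 254 in the members and 2 of 725 in the motif holders were near a far larger clonotype. Whether the low-read entries were separate cells was not tested.

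The description was therefore repeated for members with at least 10 reads. There were 253 of these, 24, 8 and 80 in IL-17neg 13-01, 20-01 and 27-01, and 18, 42 and 82 in the IL-17pos samples. Their reads were 30.7%, 20.0% and 22.1% of the Trdv1 and Trdv5 reads in the IL-17neg and 13.5%, 23.5% and 21.5% in the IL-17pos samples, almost the same as for all members. As a share of clonotypes with at least 10 reads they were 28.2%, 15.1% and 19.5% in the IL-17neg and 18.6%, 26.6% and 20.6% in the IL-17pos samples. The remnant had the same median, with 10 bases by the borders and an exact run of 9. Its frames were GGI in 36.5%, EGY in 32.4% and RRD in 31.1% of the 241 that could be placed, and loss of the end of the window (125) was closer in number to loss of its start (106). In the RRD frame the order turned, with the end lost in 32 members and the start in 38. The first base of Trdd2 was kept in 39.0% and the last in 26.6% of the 241. Regions longer than Trdd2 were found in 17 (6.72%) rather than 12.02%. Trdv5 was used by 143 (56.5%). Insertions averaged 5.13 bases between V and D and 2.34 between D and J, close to the values of all members. The part of Trdj1 was complete in 52.2%, against 38.4% of all members, and the mean number of bases outside the exact V, Trdd2 and Trdj1 parts was 11.8 rather than 16.1.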

How the data were processed

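The delta chain was amplified by RACE PCR and sequenced as read pairs on a MiSeq, and the authors annotated the reads with MiXCR against the IMGT reference. The version and settings of MiXCR are not given in the sources used here. Per sample, 1 deposited table per read of the pair lists clonotypes with the raw read count and the fraction of the table's reads. The fractions were not used for results, since shares were computed from the counts. The tables also hold the authors' positions of the segment borders in CDR3, counted from 0. The submitters' processing notes name build mm10.

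Inserted bases were those between the end of V and the start of D and between the end of D and the start of J. Any Trdd1 bases lying there counted as inserted. The D region was the span from the start of D to its end. A motif was searched for in the CDR3 amino acid sequence. The longest exact Trdd2 run (at least 5 bases to be placed), the exact V and J parts and runs of Trdd1 (at least 6 bases) were found against RefSeq sequence of GRCm38. This placement and the tests were checked on simulated joins and values. The simulated joins all kept base 11 of Trdd2, which 47.3% of placed members kept, and their true borders were given. The check therefore does not cover most members or the borders of the tables. Each distinct clonotype counted once, and per sample means entered the tests. Between IL-17neg and IL-17pos, means of 3 against 3 samples were tested over all 20 assignments of the labels (exact permutation, two-sided, 8 comparisons), members with motif holders by an exact two-sided sign-flip test over 6 samples (64 assignments, 6 comparisons, of which those of insertions and CDR3 length are given without a p because they are tied to the rule, and the other 3 were adjusted together), with Benjamini-Hochberg adjustment. No test was run over single clonotypes.

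Named members were the one with most reads of each V segment in each sample, the 3 that occurred in the largest number of samples, with ties settled by summed read share, those with the longest or shortest D region or the most insertions among members with at least 10 reads, and the one with the largest summed share of reads in each frame. The members, measures and lists were chosen with earlier results of these data known. Alternatives were at least 2 or 10 reads, the table of the second read, a motif counted only where at least 6 of its bases lie in the D region, weighting by reads, another denominator, each sample left out and a replicate block. Others, namely exact germline matches in place of the borders, Trdd2 given the bases it shares with V or J, members with at least 10 reads found elsewhere at any count, and leaving out N-added Trdd2 clonotypes within 3 bases of one with at least 50 times the reads, were chosen after seeing the data. Python 3.11.15 with NumPy 2.4.6, pandas 2.3.3 and SciPy 1.17.1 was used.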

Additional observations from a re-analysis of the deposited data

How the results depend on the processing

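No comparison passed an adjusted p of 0.05 under any setting tried, so the alternatives bear on directions and sizes only. The differences below are IL-17pos minus IL-17neg or members minus motif holders. Of 87 values recomputed under other settings, the replicate block aside, 79 kept their direction. With at least 10 reads per clonotype the difference in D region was -0.37 bases instead of 0.45. The difference in the share found in another sample was then 2.26 instead of -19.4 percentage points, which rests on the single member with at least 10 reads in 2 samples. For members with at least 10 reads found elsewhere at any count it was -13.2 points. The difference in the member share of clonotypes was 0.455 points, but -1.90 points in the tables of the second read, -0.811 points with the N-added Trdd2 clonotypes as denominator and -1.61 points without close variants of far larger clonotypes. Weighted by reads, the difference in D region was -0.20 bases and that in insertions between D and J -0.20 instead of 0.58 bases. The Trdv5 share of members against motif holders, 4.65 points, was 9.82 with at least 2 reads, 11.4 with at least 10, 10.2 weighted by reads and 8.25 in the tables of the second read. The group difference in insertions between V and D, 0.27 bases, was 1.17 with at least 10 reads and 1.43 weighted by reads. With at least 2 reads, the group difference in Trdv5 share was -21.6 points and that in insertions between D and J 0.68 bases. Between groups, the Trdv5 difference of -17.7 points was -4.54 weighted by reads, that in insertions between D and J 0.14 bases with at least 10 reads and that in D region 0.031 bases without the close variants. By exact germline matches the group differences in insertions were 1.24 bases between D and J and 0.69 between V and D, and that in D length was 0.118 bases. The members' excess in clonotypes found in another sample, 1.46 points, ranged from 0.457 with at least 10 reads to 9.23 in the tables of the second read. The share of clonotypes with at least 10 reads differed by -8.10 points between members and motif holders, and by 0.681 points without those close variants. It differed by -12.2 points in the tables of the second read and by -7.79 points with the motif required to overlap the D region. The exact sign-flip p was 0.03125 under each of these last settings, the smallest it can be.

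With one sample left out at a time, 79 of 84 values kept their direction. The difference in member share of reads ranged from -6.89 to -1.53 points, that in the share found in another sample from -36.3 to -1.86 points, and that in the Trdv5 share from -25.2 to -6.0 points. The difference in member share of clonotypes ranged from -1.29 to 2.11 points, that in insertions between V and D from -0.041 to 0.74 bases, and the members' excess in clonotypes found in another sample from -1.31 to 3.47 points. The difference in CDR3 length ranged from 0.887 to 2.78 nucleotides, that in D region from 0.13 to 0.70 bases and that in insertions between D and J from 0.26 to 0.81 bases. Against motif holders, insertions between D and J ranged from 0.085 to 0.47 bases and the Trdv5 share from 2.0 to 9.15 points. The causes were not tested. The number of members was 291 with at least 2 reads, 253 with at least 10, 256 in the tables of the second read, 480 with the motif required to overlap the D region and 285 without the close variants.

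The numbers 13-01, 20-01 and 27-01 are shared by the groups, but the labels do not say what they mark. Over 220 clonotypes found in more than one sample, deviations from the group means correlated between samples of the same number at 0.186, -0.0054 and 0.0188, so the samples were treated as unpaired. Of the 51 members among them, 50 had at most 4 reads in the second sample, and the check does not show what the numbers mark. With a replicate block the difference in the member share of reads was -4.75 points, the same by construction (exact sign-flip p = 0.75, where 3 pairs cannot go below 0.25), and the smallest p of the 8 was 0.25, for the Trdv5 share.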

Other observations

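Several members encoded the same protein. The 466 members gave 440 combinations of V segment and CDR3 amino acid sequence, of which 22 were encoded by more than one nucleotide sequence and at most 3. Within the N-added Trdd2 clonotypes, members made up 25.9% of the entries with at least 10 reads, 46.4% of those with 3 to 9 reads and 33.0% of those with 1 or 2 reads. Trdj1 was complete in 27.8% of member entries with 1 or 2 reads and in 52.4% of those with at least 10 reads, and in 23.3% and 43.2% of the motif holder entries. The mean D region was 11.4 bases in member entries with 1 or 2 reads and 10.1 bases in those with at least 10 reads. The number of members found in more than one sample was 51 with any number of reads, 17 with at least 2 and 1 with at least 10 reads in each sample.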
